A study of Mus musculus with 12 samples.

Results

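MHC class II genes and their transactivator Ciita were followed in 12 RNA-seq libraries of mouse bone marrow cells. The 10 genes, taken by symbol through NCBI gene IDs out of the 24028 genes of the deposited count tables, were Ciita, H2-Aa, H2-Ab1, H2-Eb1, Cd74, H2-DMa, H2-DMb1, H2-DMb2, H2-Oa and H2-Ob. All 10 had a row in both tables. The study set acute leukemia driven by the fusion gene MLL-ENL against normal stem and progenitor cells, and leukemic cells with high against low surface B220, an isoform of CD45. All mice were C57BL/6.

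The leukemic groups came from mice with a doxycycline-inducible knock-in (KI) of MLL-ENL (iMLL-ENL) that were given doxycycline until acute leukemia appeared. The group iMLL-ENL total (n = 3) was unsorted leukemic marrow, and the group wt LSK (n = 3) held marrow cells of wild type control mice, depleted of lineage-positive cells and sorted on c-Kit and Sca-1. The groups B220 HIGH (n = 3) and B220 LOW (n = 3) were leukemic cells sorted by B220. Neither the ages, nor any doxycycline given to the controls, nor the cells in which the inducible gene is active are given in the sources used here. The labels count 3 animals per genotype without tying a library to an animal, so the tests measure spread between libraries. The wt LSK cells were sorted and the iMLL-ENL total cells were not, so sort and leukemia cannot be told apart in that comparison.

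MHC class II molecules present peptides from endocytosed protein to CD4+ T cells. The α chain of I-A is encoded by H2-Aa and the β chain by H2-Ab1, while H2-Eb1 encodes the β chain of I-E, whose α chain gene H2-Ea is defective in C57BL/6. The invariant chain Cd74 fills the groove and guides class II to endosomes, H2-DM (H2-DMa with H2-DMb1 or H2-DMb2) exchanges its remnant for peptide, and H2-DO (H2-Oa with H2-Ob) holds H2-DM back. Ciita does not bind DNA itself but docks on the RFX, CREB and NF-Y factors assembled on the X and Y boxes of class II promoters. Dendritic cells, B cells and activated macrophages are the best known marrow-derived users of the pathway.

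The Y box of class II promoters holds the letters ATTGG, and stretches of 65 bases around its matches on the gene's strand are shown to place the Y-box letters and, in 3 of the 7 stretches, the X-box letters as well. They come from RefSeq windows of GRCm38.p6 that run from 250 bases before to 50 bases after a start listed for the gene. Of the 10 genes, 7 had a window, in 8 windows; H2-Ab1, Cd74 and Ciita are named only. Capitals mark ATTGG and, where present, the X-box letters AACNGATG. Only exact matches are marked, so an X box that differs from these letters would stay unmarked. Each line reads 5′ to 3′ on the gene's strand.
H2-Aa: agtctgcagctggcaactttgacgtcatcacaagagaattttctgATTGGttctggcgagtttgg
H2-Eb1: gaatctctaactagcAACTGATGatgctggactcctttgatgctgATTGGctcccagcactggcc
H2-DMa: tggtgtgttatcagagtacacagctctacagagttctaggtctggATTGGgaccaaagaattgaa
H2-DMb1: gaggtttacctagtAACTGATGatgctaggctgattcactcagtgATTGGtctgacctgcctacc
H2-DMb2: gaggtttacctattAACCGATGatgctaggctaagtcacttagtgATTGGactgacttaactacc
H2-Oa: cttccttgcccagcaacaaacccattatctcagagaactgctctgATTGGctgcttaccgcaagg
H2-Ob: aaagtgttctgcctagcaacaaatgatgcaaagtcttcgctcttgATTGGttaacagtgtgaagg
These stretches lie at chr17:34287852-34287916, minus strand (H2-Aa), chr17:34305763-34305827, plus strand (H2-Eb1) and chr17:34125275-34125339, plus strand (H2-DMa). Those of the DM β chain genes lie at chr17:34153085-34153149, plus strand (H2-DMb1) and chr17:34145114-34145178, plus strand (H2-DMb2), and those of the DO genes at chr17:34092291-34092355, plus strand (H2-Oa) and chr17:34238803-34238867, plus strand (H2-Ob).

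ATTGG, searched on both strands, stood in 7 of the 8 windows and in 37.4% of all 32851 windows. AACNGATG, also searched on both strands, stood in 3 of the 8 windows and in 2.32% of all windows. AACNGATG with ATTGG 20 to 40 bases behind it on the same strand occurred in 7 windows, which is 0.0213% of all. Those 7 belonged to H2-Eb1, H2-DMb1, H2-DMb2, H2-Eb2, BC051142, Gm35697 and H2-M10.4. The first base of ATTGG stood at positions -90 to -43 relative to the window's start in 6 of the 7 stretches and at -198 in H2-DMa. The H2-DMa and H2-DMb2 stretches lie inside the annotated spans of their genes, which begin at chr17:34119693 and chr17:34143229. For both genes the start used is thus not the first base of the span, and the letters need not be those of the main promoter. In H2-Eb1 the letters were 30 bases apart, counted from first base to first base, and in both DM β chain genes 31. The motif letters were chosen with these genes in view, and a match is a description of letters, not of binding. H2-DMb1 and H2-DMb2 are near-identical copies, so reads could be split between them and the value of each alone is uncertain.

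Library totals ran from 10921521 to 22706882 counts. Levels are CPM, a share of the library total. The libraries were deposited as 2 tables, one for iMLL-ENL total with wt LSK and one for B220 HIGH with B220 LOW. Tests stayed within a table, and levels set side by side across tables rest on library totals only. A pair of libraries stood apart from the others of their group. B220 HIGH replicate 2 was the highest of its group for 7 of 10 class II genes, against 27.8% of all genes tested. It was also the highest for 8 of 10 conventional dendritic cell markers, 7 of 9 plasmacytoid dendritic cell markers and 7 of 10 B cell markers. Replicate 2 of wt LSK was the highest of its group for 10 of 10 class II genes, against 46.7% of all genes tested, and for 9 of 9 plasmacytoid dendritic cell markers. For the class II genes, values without the library concerned stand beside those with it. These are bulk samples, in which fewer cells of a type and less RNA per cell cannot be told apart.

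**Figure D1:**
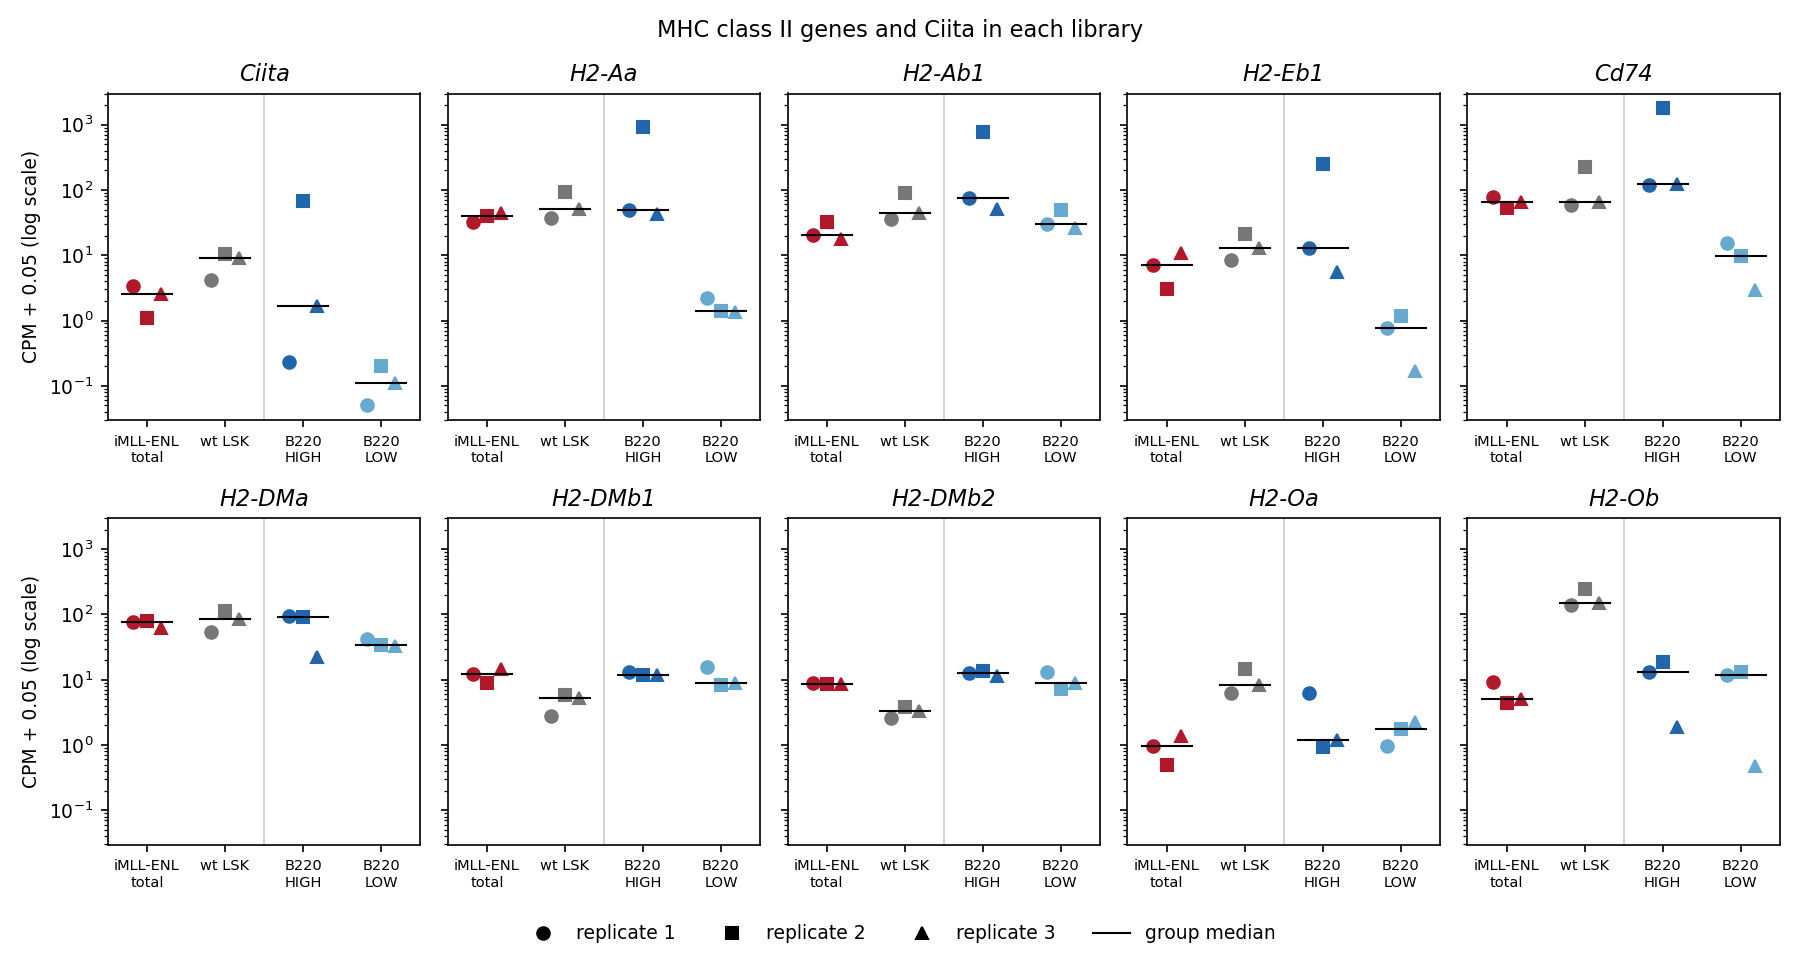
CPM plus 0.05 (log scale) of each of the 10 genes in the 12 libraries, by group, with 1 symbol per replicate and a black line at the group median. B220 HIGH replicate 2 lies far above the rest for Ciita, H2-Aa, H2-Ab1, H2-Eb1 and Cd74, B220 LOW is lowest for H2-Aa and H2-Eb1, and wt LSK is highest for H2-Ob.

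In leukemic marrow the class II genes that passed the test went in both directions, at shares near those of all genes tested. Relative to wt LSK cells, both genes of the inhibitor H2-DO fell, the β chains of H2-DM rose, and H2-Aa, H2-Eb1, H2-Ab1, Cd74, H2-DMa and Ciita did not pass the test. Of the 10 genes, 4 were called by edgeR's quasi-likelihood test at an adjusted p under 0.05, beside 30.6% of the 13811 genes tested. The 2 that rose stand beside 15.5% of all genes called higher, and the 2 that fell beside 15.1% called lower. The median log2 fold change of the 10 was -0.74, against 0.05 over all genes tested. The count depended on single controls: without wt LSK replicate 1 or without wt LSK replicate 3 it was 2, with 2658 genes (18.7%) and 2636 genes (18.5%) called in all, against 4221 with every library. In 2 of the 10 genes all 3 leukemic libraries lay above all 3 wt LSK libraries, as in 19% of all genes tested, and in 4 of the 10 they lay below, as in 29.5%.

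H2-Ob, the β chain of H2-DO, had 9.13, 4.33 and 5.02 CPM in iMLL-ENL total, against 141, 244 and 152 CPM in wt LSK. Every leukemic library lay far below every wt LSK library. The log2 fold change was -4.70 (SE 0.36, adjusted p = 7.4e-05, edgeR quasi-likelihood test), and the mean level in wt LSK was 29.1 times that in iMLL-ENL total. Without wt LSK replicate 2 the log2 fold change was -4.51 (adjusted p = 0.000582). The B220-sorted leukemic cells were low as well, at 13.3, 18.9 and 1.82 CPM in B220 HIGH and 11.66, 13.1 and 0.421 CPM in B220 LOW.

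H2-Oa, the α chain of H2-DO, had 0.927, 0.444 and 1.32 CPM in iMLL-ENL total, against 6.28, 14.5 and 8.31 CPM in wt LSK. The groups did not overlap, and the log2 fold change was -3.24 (SE 0.57, adjusted p = 0.00363, edgeR quasi-likelihood test). Without wt LSK replicate 2 it was -2.93 (adjusted p = 0.0200). H2-Oa overlaps BC051537, and the library kit did not keep strand, so its counts are uncertain; BC051537 had at most 0.396 CPM in iMLL-ENL total and 1.45 to 3.13 CPM in wt LSK.

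H2-DMb1 had 12.1, 8.89 and 14.5 CPM in iMLL-ENL total, against 2.69, 5.76 and 5.20 CPM in wt LSK. H2-DMb2 had 8.80, 8.55 and 8.63 CPM in iMLL-ENL total, against 2.52, 3.79 and 3.32 CPM in wt LSK. For both DM β chain genes all 3 leukemic libraries lay above all 3 wt LSK libraries. The log2 fold changes were 1.55 for H2-DMb1 (SE 0.41, adjusted p = 0.0212) and 1.59 for H2-DMb2 (SE 0.37, adjusted p = 0.0122), both by edgeR's quasi-likelihood test. With the counts of the 2 copies summed, the log2 fold change was 1.57 (SE 0.32, adjusted p = 0.00702, edgeR). The separate calls rested on few libraries. H2-DMb1 no longer passed when wt LSK replicate 1, 2 or 3 was left out (adjusted p = 0.0944, 0.0518 and 0.0670), or replicate 3 of iMLL-ENL total (0.0660). H2-DMb2 no longer passed when wt LSK replicate 1 (adjusted p = 0.0709) or 3 (0.0596) was left out, and passed without wt LSK replicate 2 (0.0403).

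H2-DMa, the partner of both β chains, had 76.2, 79.3 and 61.3 CPM in iMLL-ENL total, against 54.6, 112 and 84.9 CPM in wt LSK. The ranges overlapped and the log2 fold change was -0.05 (SE 0.25, adjusted p = 0.908, edgeR quasi-likelihood test), which turned to 0.13 without wt LSK replicate 2. H2-DMa overlaps Brd2, which ran at 178 to 332 CPM in iMLL-ENL total and 315 to 388 CPM in wt LSK, so reads of the 2 genes may be mixed. Per kilobase of the deposited gene width, H2-Ob stood at 0.0310 to 0.0679 of the H2-DMa level in iMLL-ENL total, against 1.02 to 1.47 times it in wt LSK. In the sorted leukemic cells the same ratio ran from 0.0462 to 0.116 in B220 HIGH and from 0.00738 to 0.217 in B220 LOW. The wt LSK libraries were the only 3 of the 12 in which H2-Ob matched or exceeded H2-DMa by this measure.

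Ciita had 3.29, 1.06 and 2.47 CPM in iMLL-ENL total, against 4.19, 10.3 and 8.93 CPM in wt LSK. All 3 leukemic libraries were below all 3 wt LSK libraries, but the log2 fold change of -1.60 (SE 0.56) did not pass edgeR's quasi-likelihood test (adjusted p = 0.0590). DESeq2, which called 35.5% of all genes, called it (log2 fold change -1.66, adjusted p = 0.0164). Without wt LSK replicate 2 the log2 fold change was -1.44 (adjusted p = 0.164, edgeR). Its direction was the same in every alternative tried. Ciita overlaps Dexi, which had 2.03 to 7.55 CPM in iMLL-ENL total and 6.83 to 11.6 CPM in wt LSK.

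H2-Ab1 had 20.1, 32.3 and 17.7 CPM in iMLL-ENL total, against 35.6, 88.8 and 44.8 CPM in wt LSK. The groups did not overlap, and the log2 fold change was -1.10 (SE 0.37, adjusted p = 0.0536, edgeR quasi-likelihood test). It passed the threshold with RLE size factors (adjusted p = 0.0446, beside 30.3% of all genes called), with DESeq2 (0.0126), with no filter on low counts (0.0348, beside 21% of all genes called) and when iMLL-ENL total replicate 2 was left out (0.0266, beside 31.8%). Without wt LSK replicate 2 the log2 fold change was -0.71 (adjusted p = 0.177).

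H2-Aa had 32.7, 39.4 and 44.96 CPM in iMLL-ENL total, against 37.2, 93.0 and 51.4 CPM in wt LSK. H2-Eb1 had 6.996, 2.94 and 10.97 CPM in iMLL-ENL total, against 8.32, 21.0 and 12.8 CPM in wt LSK. Cd74 had 79.0, 53.2 and 65.5 CPM in iMLL-ENL total, against 59.0, 228 and 65.7 CPM in wt LSK. All 3 genes overlapped between the groups, and wt LSK replicate 2 was the highest library of each. By edgeR's quasi-likelihood test the log2 fold changes were -0.46 for H2-Aa (SE 0.32, adjusted p = 0.323), -0.82 for H2-Eb1 (SE 0.53, adjusted p = 0.280) and -0.65 for Cd74 (SE 0.48, adjusted p = 0.342). Without wt LSK replicate 2 they were -0.10 for H2-Aa (adjusted p = 0.826), -0.51 for H2-Eb1 (adjusted p = 0.588) and 0.15 for Cd74 (adjusted p = 0.708), whose sign turned. Cd74 overlaps the small RNA gene Mir5107, and H2-Eb1 overlaps the antisense gene Gm20513.

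**Figure D2:**
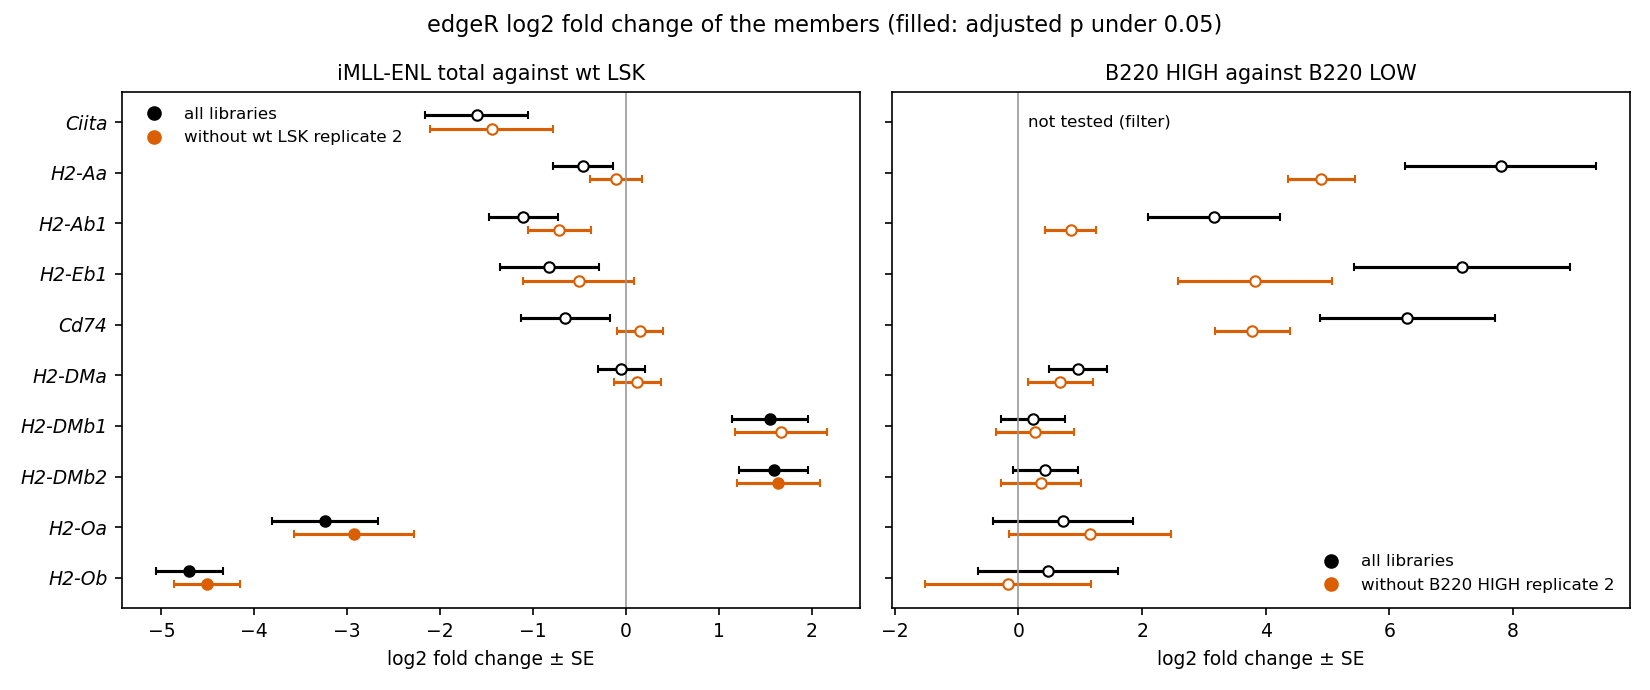
edgeR log2 fold change of each of the 10 genes with its SE, for iMLL-ENL total against wt LSK (left) and B220 HIGH against B220 LOW (right), with every library (black) and without replicate 2 of wt LSK or of B220 HIGH (orange); filled points have an adjusted p under 0.05. On the left H2-Ob and H2-Oa lie far below 0, and on the right no point is filled although H2-Aa reaches 7.80.

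Among the class II genes, B220 HIGH and B220 LOW leukemic cells lay farthest apart in H2-Aa, H2-Eb1, Cd74 and Ciita. Each was low in B220 LOW cells. For Ciita, 1355 of the 1389 counts in B220 HIGH came from replicate 2. No gene passed edgeR's test fitted without pairing libraries by replicate number. edgeR's quasi-likelihood test called 0 of the 12564 genes tested, which is 0%, and 0 of the 9 class II genes that passed the filter on low counts; Ciita did not pass it. At an unadjusted p under 0.05 there were 880 genes in all, or 7%, and 4 of the 9: H2-Aa, H2-Eb1, Cd74 and H2-Ab1. In these 4 genes all 3 B220 HIGH libraries lay above all 3 B220 LOW libraries, as in 6.2% of all genes tested. limma-voom called 0 genes and DESeq2 called 232, which is 1.85%. DESeq2 gave no adjusted p for H2-Aa, H2-Ab1, H2-Eb1 and Cd74. With the replicate number as a block, which pairs libraries of the same number, edgeR called 79 genes, which is 0.629%, and 1 of the 9 (H2-Eb1). H2-Aa, Cd74 and H2-Ab1 were not called with the block.

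H2-Aa had 49.5, 925 and 42.9 CPM in B220 HIGH, against 2.16, 1.34 and 1.32 CPM in B220 LOW. Replicate 2 of B220 HIGH was 18.7 times the next library of its group, and the other 2 still stood far above B220 LOW. Within numbered pairs the ratio of B220 HIGH to B220 LOW was 22.9 (95% interval 16.1 to 33.6), 691 (437 to 1166) and 32.4 (21.3 to 52.0). These exact binomial intervals cover counting error only. The log2 fold change was 7.80 (SE 1.55, adjusted p = 0.300, edgeR quasi-likelihood test), and without B220 HIGH replicate 2 it was 4.90 (SE 0.54, adjusted p = 0.143). H2-Aa was called without B220 HIGH replicate 1 (8.32, adjusted p = 0.0326, beside 0.736% of all genes) and in 1 fit over all 12 libraries (adjusted p = 0.0491, beside 0.213%).

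H2-Eb1 had 12.8, 247 and 5.56 CPM in B220 HIGH, against 0.720, 1.12 and 0.120 CPM in B220 LOW. The groups did not overlap, and B220 HIGH replicate 2 was again the highest, at 19.2 times the next library. The log2 fold change was 7.18 (SE 1.75, adjusted p = 0.377, edgeR quasi-likelihood test). With the replicate block it was 6.05 (SE 0.77, adjusted p = 0.0182), which passes, and without B220 HIGH replicate 2 it was 3.82 (adjusted p = 0.793).

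Cd74 had 117, 1783 and 123 CPM in B220 HIGH, against 15.5, 9.60 and 2.89 CPM in B220 LOW. Again the groups did not overlap, with B220 HIGH replicate 2 at 14.5 times the next library. The log2 fold change was 6.29 (SE 1.42, adjusted p = 0.377, edgeR quasi-likelihood test). It was 3.79 (adjusted p = 0.311) without B220 HIGH replicate 2 and 6.80 (adjusted p = 0.0478) without B220 HIGH replicate 1. Mir5107, which lies within Cd74, had 0.275, 17.0 and 0.708 CPM in B220 HIGH, against 0.131, 0 and 0.0601 CPM in B220 LOW.

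Ciita had 2, 1355 and 32 counts in B220 HIGH, against 0, 2 and 1 counts in B220 LOW, or 0.183, 67.5 and 1.62 CPM against 0, 0.149 and 0.0601 CPM. It was at or below 3 counts in every B220 LOW library and in B220 HIGH replicate 1. Pooled over libraries, the ratio was 414 with a 95% counting interval of 141 to 2008, and 1355 of the 1389 B220 HIGH counts came from replicate 2. Without that library, left out after the data were seen, 34 counts stood against 3, a ratio of 16.7 (5.26 to 85.2). In the fit over all 12 libraries, where Ciita passed the filter, its log2 fold change was 8.40 (SE 1.97, adjusted p = 0.0943, edgeR quasi-likelihood test). B220 HIGH replicate 1 had 541 counts of H2-Aa and 1280 of Cd74 beside its 2 counts of Ciita.

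H2-Ab1 differed from its partner chain. It had 74.4, 783 and 50.5 CPM in B220 HIGH, against 30.1, 49.8 and 26.0 CPM in B220 LOW. The lowest B220 HIGH library lay just above the highest B220 LOW library. The log2 fold change was 3.16 (SE 1.06, adjusted p = 0.600, edgeR quasi-likelihood test), and without B220 HIGH replicate 2 it was 0.85 (adjusted p = 0.999). Per kilobase, H2-Ab1 stood at 15.8, 42.1 and 22.2 times H2-Aa in the B220 LOW libraries, and at 0.446 to 1.70 times in the other 9. In B220 LOW these ratios rest on 33, 18 and 22 counts of H2-Aa beside 460, 670 and 432 counts of H2-Ab1. The pattern was noticed in the values and has no test.

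**Figure D3:**
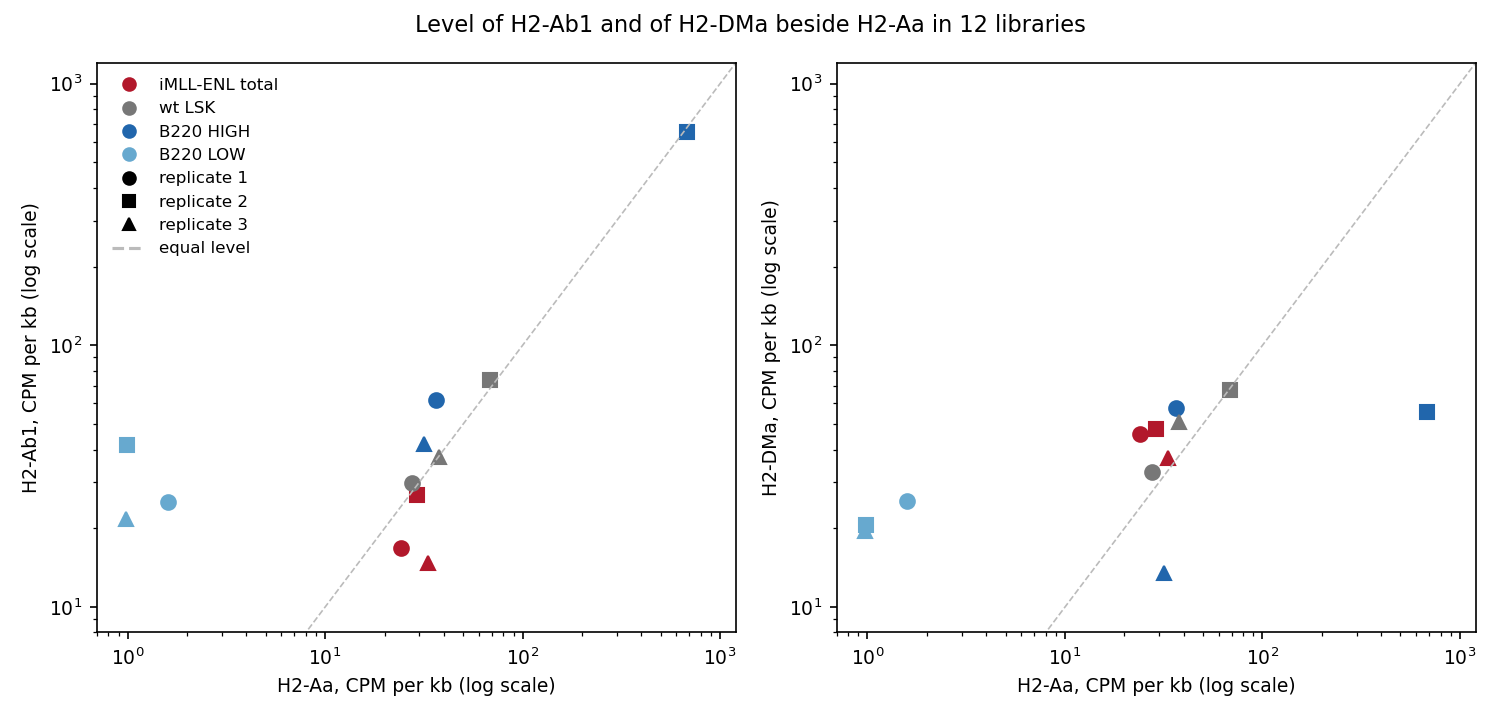
Level of H2-Ab1 (left) and H2-DMa (right) against H2-Aa in each of the 12 libraries, in CPM per kilobase on log scales, with groups by colour, replicates by symbol and a dashed line of equal level. The 3 B220 LOW libraries lie far left of the line in both plots, and B220 HIGH replicate 2 lies on it for H2-Ab1 and far below it for H2-DMa.

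Among the peptide exchange genes, H2-DMa had 95.3, 92.1 and 22.4 CPM in B220 HIGH, against 42.2, 34.1 and 32.4 CPM in B220 LOW. The ranges overlapped, with B220 HIGH replicate 3 below every B220 LOW library (log2 fold change 0.96, SE 0.47, adjusted p = 0.760, edgeR quasi-likelihood test). Without B220 HIGH replicate 2 the log2 fold change was 0.68. Per kilobase, H2-DMa stood at 16.0 to 20.9 times H2-Aa in B220 LOW, and at 0.0814 times in B220 HIGH replicate 2. H2-DMb1 ran at 11.9 to 13.3 CPM in B220 HIGH and 8.18 to 15.8 CPM in B220 LOW, and H2-DMb2 at 11.4 to 13.7 CPM in B220 HIGH and 7.22 to 13.0 CPM in B220 LOW. Their log2 fold changes were 0.24 and 0.43, with SE 0.52 and 0.53, and 0.26 and 0.37 without B220 HIGH replicate 2. B220 HIGH replicate 2, with the most H2-Aa of the 12 libraries, had 11.9 CPM of H2-DMb1 and 13.7 CPM of H2-DMb2.

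H2-Oa had 6.32, 0.897 and 1.16 CPM in B220 HIGH, against 0.917, 1.71 and 2.17 CPM in B220 LOW. The ranges overlapped, and the log2 fold change of 0.72 (SE 1.13) turned to -0.54 without B220 HIGH replicate 1 and was 1.15 without B220 HIGH replicate 2. H2-Ob, whose values are given above, overlapped too. Its log2 fold change of 0.48 (SE 1.13) turned to -0.17 without B220 HIGH replicate 2 and to -0.04 without B220 LOW replicate 3. By median CPM, H2-Aa ran lowest in B220 LOW, then iMLL-ENL total, B220 HIGH and wt LSK, with only the B220 LOW range apart from its neighbour. H2-DMb1 and H2-DMb2 ran lowest in wt LSK, whose range was apart from the next group, while the 3 leukemic groups overlapped.

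Of the 7 factors of the class II enhanceosome, the complex on the X and Y boxes, 2 fell in iMLL-ENL total, beside 15.1% of all genes called lower, and 0 rose, with a list median of -0.03 against 0.05 for all genes. Rfx5, the DNA-binding subunit of RFX, had 71.4, 51.3 and 46.9 CPM in iMLL-ENL total, against 112, 120 and 126 CPM in wt LSK (log2 fold change -0.93, SE 0.20, adjusted p = 0.00952, edgeR). Nfya, a subunit of the Y-box factor NF-Y, had 223, 235 and 178 CPM in iMLL-ENL total, against 389, 411 and 353 CPM in wt LSK (-0.71, SE 0.17, adjusted p = 0.0158, edgeR). Both genes were apart between the groups, and Nfya lost its call without wt LSK replicate 1 (adjusted p = 0.0571). Between B220 HIGH and B220 LOW, edgeR called 0 of the 7. Rfx5 stood at 29.4 to 33.3 CPM in B220 HIGH and 12.3 to 40.9 CPM in B220 LOW.

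Among 16 regulators upstream of Ciita, 15 were tested in iMLL-ENL total against wt LSK; 4 rose and 2 fell, beside 15.5% of all genes called higher and 15.1% lower, and the list median was -0.44 against 0.05 for all genes. Ifngr1, the ligand-binding chain of the interferon-γ receptor, averaged 444 ± 73.1 CPM in iMLL-ENL total and 83.4 ± 15.7 CPM in wt LSK (SD, n = 3 each; log2 fold change 2.58, adjusted p = 9.6e-05, edgeR). Spi1, the myeloid factor PU.1, averaged 147 ± 14.8 CPM in iMLL-ENL total and 41.2 ± 10.9 CPM in wt LSK (SD, n = 3 each; 2.002, adjusted p = 0.000433, edgeR). Ifngr2 and Nfil3 also rose, and Irf1 and Stat5a fell. Irf1, a factor induced by interferon-γ, averaged 24.5 ± 4.24 CPM in iMLL-ENL total and 82.2 ± 17.9 CPM in wt LSK (SD, n = 3 each). The calls of Nfil3 and Stat5a were lost without wt LSK replicate 1 (adjusted p = 0.0731 and 0.0533), and that of Stat5a without wt LSK replicate 3 (0.0713). Between B220 HIGH and B220 LOW, 0 of the 14 tested were called. Irf4, a factor of B cells and dendritic cells, had 2.56, 70.5 and 0.607 CPM in B220 HIGH, against 0.851, 0 and 2.95 CPM in B220 LOW.

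Of the 10 genes of class II processing and turnover, 7 rose in iMLL-ENL total, beside 15.5% of all genes called higher, and 0 fell, with a list median of 1.27 against 0.05 for all genes. Marchf1, a ubiquitin ligase that removes class II from the surface, had 43.6, 35.7 and 84.4 CPM in iMLL-ENL total, against 3.12, 5.87 and 2.04 CPM in wt LSK (log2 fold change 4.07, SE 0.51, adjusted p = 0.000701, edgeR). Ifi30, the lysosomal thiol reductase GILT, had 56.4, 120 and 158 CPM in iMLL-ENL total, against 4.78, 14.5 and 3.93 CPM in wt LSK (4.04, SE 0.60, adjusted p = 0.0019, edgeR). Neither gene overlapped between the groups. The other 5 were Ctss, Ctsb, Ctsd, Marchf8 and Psap, of which all but Ctsb no longer passed when wt LSK replicate 1 was left out (adjusted p = 0.0514 for Ctss, 0.0577 for Ctsd, 0.0660 for Marchf8 and 0.0975 for Psap). Marchf8 no longer passed without wt LSK replicate 2 (0.0664), Ctsd, Marchf8 and Psap without wt LSK replicate 3 (0.0558, 0.0665 and 0.0792), and Ctss without replicate 2 of iMLL-ENL total (0.0506). Monocyte and macrophage markers rose in the same samples, 7 of the 9 tested, with a summed level of 925 to 2027 CPM in iMLL-ENL total against 85.6 to 195 CPM in wt LSK. Of these 7, Vcam1 no longer passed without iMLL-ENL total replicate 2 or 3 (adjusted p = 0.0867 and 0.0511) or without wt LSK replicate 2 or 3 (0.0738 and 0.0760). Lysosomal genes are also expressed by macrophages, and the part of such cells in the list's change was not tested.

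In B220 HIGH against B220 LOW, 8 of these 10 had all 3 B220 HIGH libraries above all 3 B220 LOW libraries, beside 6.2% of all genes tested, and the list median was 1.85 against -0.03. edgeR called 0 of the 10. DESeq2 called Ctss, Ctsl, Ctsb, Ctsd, Ifi30 and Psap (adjusted p = 3.1e-11 to 0.0257), beside 1.85% of all genes. Without B220 HIGH replicate 1, edgeR called the same genes (adjusted p = 0.0157 to 0.0401), beside 0.736%. Ctss, cathepsin S, which trims the invariant chain in antigen presenting cells, had 98.9, 382 and 528 CPM in B220 HIGH, against 29.9, 10.3 and 19.4 CPM in B220 LOW (log2 fold change 4.21, SE 0.69, adjusted p = 0.132, edgeR). The highest library was replicate 3 here, not replicate 2. Ctsd, cathepsin D, had 659, 1004 and 1531 CPM in B220 HIGH, against 316, 314 and 345 CPM in B220 LOW. With the replicate block, Ctsd (log2 fold change 1.68, adjusted p = 0.0133, edgeR) and Lgmn (3.51, adjusted p = 0.0463, edgeR), the gene of asparagine endopeptidase, passed, as did the monocyte and macrophage markers Adgre1 (2.70, adjusted p = 0.0313) and Cd14 (2.61, adjusted p = 0.0482). Among the monocyte and macrophage markers, DESeq2 called Adgre1 (adjusted p = 8.6e-05), Cd68 (0.0146) and Mertk (0.00414), beside the same 1.85% of all genes. Without B220 HIGH replicate 1, edgeR called the markers Cd68 (adjusted p = 0.0236) and Cd14 (0.0401), beside the same 0.736%. Ctss, Ctsd and the other genes called by DESeq2 are named here after their values were seen. Monocyte and macrophage markers summed to 551, 1322 and 1268 CPM in B220 HIGH, against 428, 671 and 669 CPM in B220 LOW; C1qa was at 0 in all 6 libraries, and C1qb, C1qc and Mertk were at 0 in B220 LOW and had counts in every B220 HIGH library. Not all markers of the list were higher in B220 HIGH: Ly6c2 had 32.2, 212 and 55.1 CPM in B220 HIGH, against 106, 291 and 115 CPM in B220 LOW. Vcam1 had 1.74, 141 and 2.43 CPM in B220 HIGH, against 18.2, 125 and 85.5 CPM in B220 LOW.

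The MHC class I pathway, which presents peptides from the cytosol, had 6 of 15 genes that fell and 2 that rose in leukemic marrow, beside 15.1% of all genes called lower and 15.5% higher, with a list median of -0.55 against 0.05 for all genes. Nlrc5, the class I counterpart of Ciita, had 12.6, 13.3 and 9.56 CPM in iMLL-ENL total, against 107, 118 and 145 CPM in wt LSK. All leukemic libraries were below all wt LSK libraries (log2 fold change -3.23, SE 0.23, adjusted p = 5.9e-05, edgeR). H2-K1, a classical class I heavy chain with close paralogs and so an uncertain count, averaged 330 ± 94.2 CPM in iMLL-ENL total and 1174 ± 118 CPM in wt LSK (SD, n = 3 each; -1.68, adjusted p = 0.00122, edgeR). B2m, H2-T23, H2-M3 and Tap1 also fell, and Calr and Pdia3, 2 chaperones of the endoplasmic reticulum, rose. H2-T23 no longer passed when replicate 1 or 2 of iMLL-ENL total (adjusted p = 0.0739 and 0.0551) or replicate 2 or 3 of wt LSK (0.101 and 0.109) was left out, nor Pdia3 without wt LSK replicate 1 or 3 (0.0756 and 0.0568). Between B220 HIGH and B220 LOW, 0 of the 15 were called, and Nlrc5 had 24.2, 33.2 and 15.3 CPM in B220 HIGH, against 17.5, 2.16 and 7.70 CPM in B220 LOW.

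Of 8 other genes of the class II region, 6 were tested in iMLL-ENL total against wt LSK and only the peptide transporter Tap1 was called, lower (log2 fold change -1.50, SE 0.26, adjusted p = 0.00307, edgeR). H2-Eb2, whose window carried the X and Y letters, had 0, 42 and 1 counts in iMLL-ENL total, against 15, 7 and 17 in wt LSK, 0, 21 and 0 in B220 HIGH and 6, 0 and 0 in B220 LOW. H2-Ea had 4 counts in B220 HIGH replicate 2 and 0 in the other 11 libraries. Between B220 HIGH and B220 LOW, edgeR called 0 of the 5 tested.

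Markers of cells that use class II were counted in the same samples. In iMLL-ENL total against wt LSK, 4 of 9 conventional dendritic cell markers tested fell and 0 rose, beside 15.1% of all genes called lower. Their summed level was 22.9 to 60.6 CPM in iMLL-ENL total and 447 to 677 CPM in wt LSK, most of it Flt3, which early progenitors also express. Among plasmacytoid dendritic cell markers 1 of 7 fell, a share near the 15.1% of all genes, and among B cell markers 3 of 10 fell. The B cell markers summed to 27.8 to 43.6 CPM in iMLL-ENL total, against 60.0, 235 and 65.2 CPM in wt LSK. Without wt LSK replicate 2, Clec9a (adjusted p = 0.0593), Ccr9 (0.195), Blnk (0.157) and Ebf1 (0.0868) no longer passed. Ccr9 also did not pass without wt LSK replicate 1 or any one replicate of iMLL-ENL total, Blnk without replicate 1 or 3 of iMLL-ENL total, and Ebf1 without replicate 3 of it (adjusted p = 0.0695 to 0.113 over these). The labelled LSK cells carried their markers, and all 6 fell in leukemic marrow, with Kit at 88.3 to 151 CPM in iMLL-ENL total, against 1050 to 1350 CPM in wt LSK. The part of these cells in the class II values was not tested.

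In B220 HIGH replicate 2, Siglech, a marker of plasmacytoid dendritic cells, stood at 66.7 CPM, against 0.458 and 2.02 CPM in the other B220 HIGH libraries and at most 0.0601 CPM in B220 LOW. Ly6d stood at 58.8 CPM there and at most 0.0916 CPM in the other 2. Zbtb46, a factor of conventional dendritic cells, had 0.183, 6.23 and 1.21 CPM in B220 HIGH, against 0, 0.521 and 0.1804 CPM in B220 LOW. Within the same replicate Clec9a was at 0, and Klk1 and Pax5 were at 0.0997 CPM each. The conventional dendritic cell markers summed to 19.96, 151 and 32.1 CPM in B220 HIGH, against 13.7, 3.94 and 12.4 CPM in B220 LOW. For B cell markers the sums were 23.7, 68.7 and 18.4 CPM in B220 HIGH, against 26.7, 18.2 and 17.98 CPM in B220 LOW. For plasmacytoid markers, mostly the broadly expressed Runx2 and Tcf4, they were 745, 1096 and 880 CPM in B220 HIGH, against 702, 687 and 777 CPM in B220 LOW. The part of such cells in the class II levels of that library was not tested. Replicate 2 of wt LSK likewise had Siglech at 74.7 CPM, against 2.31 and 5.41 CPM in the other wt LSK libraries.

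**Figure D4:**
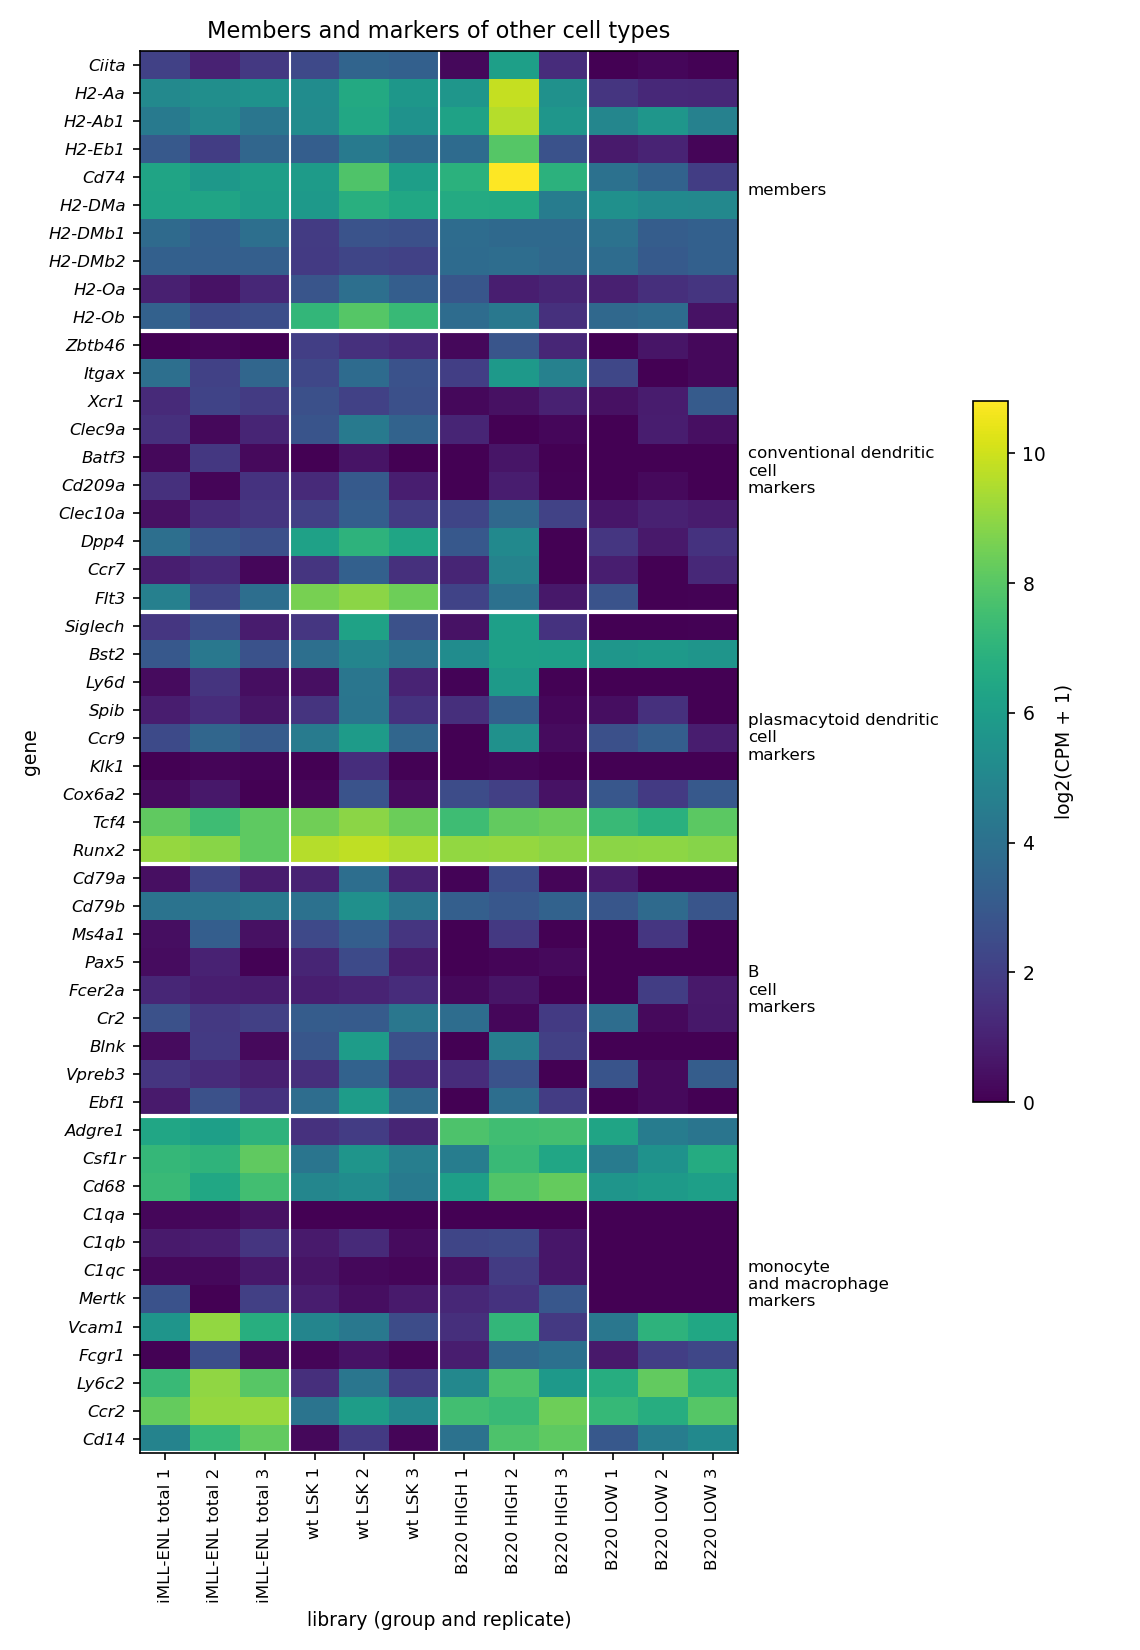
log2(CPM + 1) of the 10 class II genes and of the markers of dendritic cells, B cells, monocytes and macrophages (rows, by list) in the 12 libraries (columns). B220 HIGH replicate 2 and wt LSK replicate 2 are bright for Siglech, Ly6d and Ccr9 as well as for H2-Aa and Cd74, and Clec9a is at 0 in B220 HIGH replicate 2.

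The genes whose levels were most like the mean of H2-Aa, H2-Ab1, H2-Eb1 and Cd74 were ranked by Pearson's r of log2(CPM + 1) among genes with a mean of at least 2 on that scale. Over the 12 libraries they were Cd86 (r = 0.885, rho = 0.874), Slamf7 (r = 0.873, rho = 0.860), B4galt3 (r = 0.825, rho = 0.895), Siglech (r = 0.822, rho = 0.718) and Ly6a (r = 0.816, rho = 0.797). Cd86, the costimulatory ligand B7-2, had 2.20, 86.2 and 13.1 CPM in B220 HIGH and 1.64, 0.149 and 0.361 CPM in B220 LOW. Its level was 4.59, 0.444 and 6.56 CPM in iMLL-ENL total, against 7.95, 13.1 and 8.72 CPM in wt LSK. Without B220 HIGH replicate 2 and B220 LOW replicate 3, the 2 libraries farthest from the median of the chains, r over the other 10 was 0.713 for Cd86 and 0.900 for Slamf7. Over the 9 leukemic libraries the leading genes were Gpr171 (r = 0.933), Aff3 (0.920), Bcl11a (0.915), Bmyc (0.901) and Camk2d (0.899). Bcl11a, a lymphoid and dendritic cell factor, had 4.67, 144 and 1.26 CPM in B220 HIGH and 0, 0.521 and 0.0601 CPM in B220 LOW. Its r over 7 libraries without the same 2 was 0.629. In wt LSK, which this ranking left out, Bcl11a had 563, 623 and 658 CPM. Each gene named in this ranking was higher in every wt LSK library than in any leukemic library. Libraries of a group share a sort and a deposited table, and these values are descriptions.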

How the data were processed

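RNA of 12 bone marrow libraries, 3 in each of 4 groups assigned from the sample titles, was isolated with a PicoPure kit and made into libraries with an unstranded NuGen Ovation kit, per the labels' protocols. The authors deposited raw counts per gene by NCBI gene ID in 2 tables; the submitters' processing notes name edgeR, GRCm38 and mm10, and the aligner and counter were not given in the sources used here. The deposited width (unit: other) was taken as gene length in bases for levels per kilobase, which no label defines. The deposited CPM tables were not used. Symbols and coordinates came from RefSeq GRCm38.p6, which matched 23968 of 24028 IDs and left 60 unmatched.

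CPM was computed over each library's total, 10921521 to 22706882 counts, for which 3 counts correspond to 0.132 to 0.275 CPM. Each comparison was fitted within its table on all genes passing filterByExpr (minimum count 10) with edgeR 4.0.16 in R 4.3.3: TMM factors, robust quasi-likelihood fit, two-sided F test, Benjamini-Hochberg adjustment, and a call at an adjusted p under 0.05. SE is the log2 fold change divided by the root of F. Pooled and paired ratios carry 95% exact binomial intervals. Scripts were tested on simulated data. Alternatives were RLE size factors, DESeq2 1.42.0, limma-voom (limma 3.58.1), no filter, 1 fit over all libraries, the replicate number as a block, each library left out, and H2-DMb1 with H2-DMb2 summed.

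The genes and lists were chosen with earlier results of these data known. Besides the 10 genes, each list contributed at most 2 called genes, those of smallest p, and likeness 5 genes in each ranking; others were named after their values were seen. Of 12 B cell markers, Ighm and Ighd were not used here, and a result that the naming rule takes is not reported here. The deviations of B220 HIGH and B220 LOW libraries of the same number from their group means correlated at 0.397, 0.198 and 0.307 over 12564 genes. All 3 exceed 0.1, and on that ground alone, which no label states, the replicate number was read as a pairing.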

Additional observations from a re-analysis of the deposited data

How the results depend on the processing

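For iMLL-ENL total against wt LSK, 1 fit over all 12 libraries called 2411 genes, against 4221 within the table. Leaving out each library in turn called 2636 to 4528 genes and 2 to 5 class II genes. For B220 HIGH against B220 LOW, where 0 genes passed, DESeq2 called 232, no filter 22 and the fit over all 12 libraries 31, including 1 class II gene. Leaving out each library called 0 to 96 genes and 0 to 2 class II genes. Reversed values were Cd74 at 0.15 and H2-DMa at 0.13 without wt LSK replicate 2, H2-Oa at -0.54 without B220 HIGH replicate 1, and H2-Ob at -0.17 without B220 HIGH replicate 2 and -0.04 without B220 LOW replicate 3; the cause was not tested. Over the libraries left out, the log2 fold change ran from -0.31 to 0.13 for H2-DMa and -1.01 to 0.15 for Cd74 in the first comparison, and from -0.54 to 1.15 for H2-Oa and -0.17 to 1.04 for H2-Ob in the second. These alternatives were labelled for the class II genes, the counts called per list and the pooled Ciita ratio. Of these values, 457 kept their direction and call or their size. A missing adjusted p, as DESeq2 gave for H2-Aa, H2-Ab1, H2-Eb1 and Cd74 in the second comparison, was counted there as no call. Among the class II genes 10 values gained a call and 6 lost one. The 26 that moved were list counts or the Ciita ratio, not fold changes of single genes. Counted apart from these were the numbers of all genes and of class II genes called, of which 36 kept their size and 14 moved.

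With the replicate block, B220 HIGH against B220 LOW gave 79 genes and 1 class II gene, H2-Eb1. For iMLL-ENL total and wt LSK, from different mice, same-numbered deviations correlated at 0.0164, 0.160 and -0.0358, so these libraries share only a number. The block called 4048 genes there and gave H2-Ab1 a call (adjusted p = 0.0149, edgeR). The pooled Ciita ratio of B220 HIGH to B220 LOW was 16.7 without B220 HIGH replicate 2, an alternative chosen after seeing the data, against 414 with it; its intervals cover counting error only.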
